A study of Oryza sativa with 8 samples.

Results

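Root tips of dark-grown rice seedlings exposed to ethylene gas were compared with control root tips that received neither ethylene nor the calcium treatment. The comparison was defined by the treatment labels alone and takes 4 of the 8 libraries of the series, 2 from ethylene and 2 from control. All seedlings were of the variety Dongjin, whose seeds germinated for 2 days at 37 °C and were then kept for 3 days at 28 °C in the dark in closed containers. The ethylene group received 2 ppm of the gas. The labels give no calcium chloride concentration for either group, and nothing in them ties the replicate libraries to separate plants or boxes. The spread behind each p-value is therefore that between libraries, and it may be technical. The other 4 libraries, calcium and ethylene (2) and calcium (2), enter only the shared filter, scaling and estimate of the spread, and the checks named below.

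Ethylene is a gaseous plant hormone. It binds receptors in the endoplasmic reticulum membrane, which without ethylene keep the pathway off through the kinase CTR1. Once the hormone is bound, EIN2 relays the signal to EIN3-like transcription factors in the nucleus, which start a cascade that includes the ERF transcription factors. In etiolated rice seedlings ethylene is known for shortening the primary root and lengthening the coleoptile.

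The deposited counts are listed under 57359 gene IDs that the files do not pair with names, and 0 of them matched a rice RefSeq table of 39387 genes. The genes of the ethylene pathway, and markers of the root or of other tissues, were therefore not identified here, and genes are described by level, size of change, length and the chromosome number written in the ID. Totals were 19099091 counts in ethylene replicate 3 and 25907083 in ethylene replicate 4, against 20840669 in control replicate 1 and 21529126 in control replicate 2. A total of 27008 genes had enough counts to be tested.

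Ethylene changed many genes modestly and a smaller number strongly, and the strong changes were mostly rises. At an adjusted p under 0.05, edgeR's quasi-likelihood test called 4727 genes, or 17.5% of those tested. Of these 2589 rose and 2138 fell, which is 9.59% and 7.92%. Rising genes had a median level of 36.6 CPM (counts scaled to a common library size) in ethylene and 12.1 CPM in control, and a median log2 fold change of 1.53. Falling genes had a median of 19.3 CPM in ethylene and 41.0 CPM in control, and a median log2 fold change of -1.13. These medians describe genes picked on the same libraries, and they were the same with the 81 rising genes at 0 in control and the 4 falling genes at 0 in ethylene set to their lower bound. In bulk tissue, fewer cells of a type and less RNA per cell cannot be told apart.

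A second test asked which changes exceeded 2-fold, rather than 0. It called 335 genes, or 1.24% of those tested, of which 292 rose (1.08%) and 43 fell (0.159%). The 292 had a median of 35.2 CPM in ethylene and 3.12 CPM in control, and 40 of them had at most 3 counts in the 2 control libraries together. The 43 had a median of 4.26 CPM in ethylene and 30.0 CPM in control, and 1 of them had at most 3 counts in the ethylene libraries together. In all genes tested the upper tail of the log2 fold change was the longer one. With genes at 0 in a group set to the bound that 3 counts in that group would give, the highest 5% lay above 2.64 and the lowest 5% below -1.35. The highest and lowest 1% began at 5.02 and -2.27.

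The call counts rested on single libraries. Without control replicate 2 they were 204 genes in all and 12 past 2-fold (10 rising, 2 falling), without control replicate 1 they were 2493 and 134, and without ethylene replicate 4 they were 1899 and 323. The number past 2-fold was also 923 without ethylene replicate 3. It was 120 and 130 when replicate 2 or 3 of calcium and ethylene was left out. Rises made up 54.8% of all calls with TMM scaling and 46.8% with total counts alone. The more frequent direction among all calls thus depended on the scaling. Past 2-fold, total counts alone still gave 288 rising and 55 falling genes. The predominance of rises past 2-fold was weaker without ethylene replicate 3 than with all libraries.

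**Figure D1:**
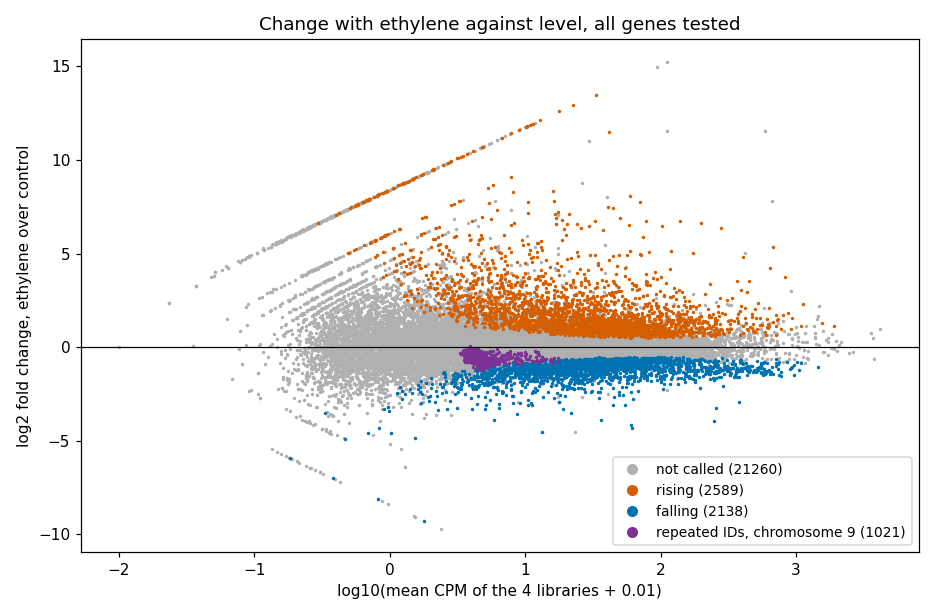
Each point is 1 of the 27008 genes tested, with log10 of the mean CPM of the 4 libraries plus 0.01 on the horizontal axis and the log2 fold change of ethylene over control on the vertical axis. The 2589 rising genes (orange) reach further from 0 than the 2138 falling genes (blue). The 1021 repeated IDs of chromosome 9 (purple) form a patch between -1.22 and 0.04. The oblique streaks are genes with 0 or a few counts in a group, whose fitted change depends on the fit's prior count.

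A large part of the transcriptome was measured well enough to bound its change. The 95% interval of the fold change lay within 2-fold in either direction for 8082 genes, or 29.9% of those tested, and 111 of these were also called. Without control replicate 1 the number was 5173. By mean level over the 4 libraries, 0 of the 3193 genes under 1 CPM were bounded in this way. The share was 10.8% of the 9481 genes at 1 to 10 CPM and 49.7% of the 12272 genes at 10 to 100 CPM, and 46.2% of the 2062 genes above that. A further 14310 genes, with a median of 3.96 CPM, were neither called nor bounded, so these libraries show neither a change nor its absence for them.

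Genes detected in ethylene alone outnumbered genes detected in control alone. Counts of at least 10 in both ethylene libraries and 0 in both control libraries were found for 130 genes, and the opposite pattern for 3. Presence in 1 library only was frequent within a group too. In ethylene, 84 genes had at least 10 counts in replicate 4 and 0 in replicate 3, and 219 the reverse. In control, 351 genes had at least 10 counts in replicate 1 and 0 in replicate 2, and 317 the reverse. Each library was also set to an equal depth of 19000000 draws, with replacement, from its count shares. The numbers of genes expected with at least 1 count were 30240 and 29822 in ethylene replicates 3 and 4. They were 28535 and 27240 in control replicates 1 and 2. Such draws miss some genes with few counts even at a library's own depth. In the counts as deposited, the numbers were 30979 and 30729 in ethylene and 29077 and 27441 in control. The ethylene libraries therefore held more detected genes by both measures, and ethylene replicate 3 had the lowest total of the libraries compared. With 2 libraries against 2, however, an exact two-sided permutation test cannot go below p = 0.333.

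The genes with the largest gain and loss in abundance were followed library by library. Levels are given in TPM, a share of the library's transcripts that allows for the length listed for each gene. Among 3362 genes that were called, changed at least 2-fold and had groups that did not overlap, the 2 with the largest gain and the 2 with the largest loss in mean TPM were taken. The rule fixed in advance that these genes were called and did not overlap, so neither is a finding about them. Their p-values and ranks are those of genes picked on these same libraries. What they encode is not given in the sources used here.

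AGIS_Os10g003440, listed with 156 bases, gained most in TPM, which divides by that length. It was not among the 2 largest gains in mean CPM. It had 3104 and 7538 TPM in ethylene replicates 3 and 4, against 1084 and 720.9 TPM in control replicates 1 and 2. Both ethylene libraries stood above both control libraries, and they were far apart from each other. Its mean was 5321 ± 3135 TPM in ethylene and 902.6 ± 256.9 TPM in control (SD, n = 2 each), a rank of 4 among all genes in ethylene and 133 in control. The log2 fold change was 2.61 (SE 0.56, edgeR adjusted p = 0.0231). That call was lost without control replicate 1 (adjusted p = 0.0664), control replicate 2 (0.149) or ethylene replicate 4 (0.088), and without the filter on low counts (0.0924), with a log2 fold change of 1.79 to 3.13 over 16 alternatives.

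AGIS_Os10g009540, of 739 bases, had 2796 and 4457 TPM in ethylene and 848.0 and 674.0 TPM in control. The groups were well apart, with ethylene replicate 4 again the highest library. Its log2 fold change was 2.30 (SE 0.32, edgeR adjusted p = 0.00577), and of the 4 genes it alone passed the 2-fold minimum (adjusted p = 0.0407). It moved to rank 8 by mean TPM in ethylene, against 182 in control.

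The deepest loss in TPM was that of AGIS_Os08g001310, of 852 bases. It had 1051 and 684.7 TPM in ethylene, against 2332 and 2573 TPM in control. Both ethylene libraries were low and both control libraries high, with replicate 4 the lowest. The log2 fold change was -1.46 (SE 0.24, edgeR adjusted p = 0.00831). AGIS_Os12g028830, of 312 bases, had 1209 and 958.2 TPM in ethylene and 2380 and 2953 TPM in control, also without overlap. Its log2 fold change was -1.26 (SE 0.20, edgeR adjusted p = 0.00815). It ranked 67 in ethylene and 11 in control, while AGIS_Os08g001310 ranked 105 and 14.

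The calls of AGIS_Os10g009540, AGIS_Os08g001310 and AGIS_Os12g028830 were each lost under 1 of 16 alternatives, the fit without control replicate 2 (adjusted p = 0.0637, 0.0754 and 0.0783). Ranked by mean CPM in place of TPM, which does not allow for length, 2 of the 4 genes would have been taken again, AGIS_Os10g009540 and AGIS_Os08g001310.

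In the calcium libraries, whose values entered the choice through the shared filter, scaling and estimate of the spread, the 4 genes stood on the same side. AGIS_Os10g003440 had 1975 and 4057 TPM in calcium and ethylene and 506.1 and 364.6 TPM in calcium (edgeR adjusted p = 0.0211). AGIS_Os10g009540 had 1520 and 2080 TPM in calcium and ethylene and 749.6 and 667.8 TPM in calcium, a log2 fold change of 1.30 (SE 0.31, edgeR adjusted p = 0.0246). Its change was thus smaller in size than without calcium, but the difference itself was not called (interaction -0.999 on the log2 scale, edgeR adjusted p = 1). The falls of AGIS_Os08g001310 and AGIS_Os12g028830 had log2 fold changes of -1.27 (SE 0.24) and -1.12 (SE 0.20) there, with edgeR adjusted p = 0.0128 and 0.0119. Over all genes, edgeR called 0 for a difference between the ethylene changes with and without calcium, and DESeq2 called 1. An unadjusted edgeR p under 0.05 was reached by 644 of the 27008 genes tested, a share smaller than that threshold.

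**Figure D2:**
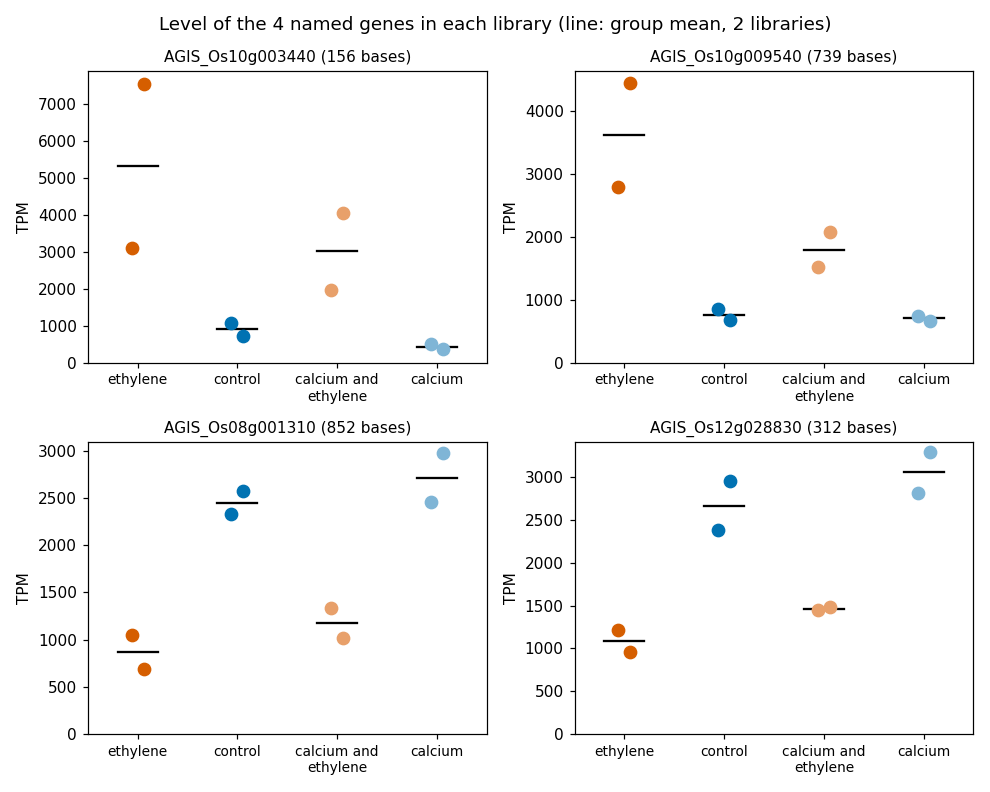
TPM of the 4 named genes in each of the 8 libraries (points) with the mean of each group of 2 (lines). Each panel starts at 0 and places ethylene beside control and calcium and ethylene beside calcium. AGIS_Os10g003440 spans 3104 to 7538 TPM within ethylene, while AGIS_Os12g028830 stays between 958.2 and 1209 TPM in ethylene and between 2380 and 2953 TPM in control.

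The most abundant transcripts were only partly the same in ethylene and control. The 100 genes with the highest mean TPM in ethylene and the 100 with the highest in control shared 48. The overlap between replicates of a group was not counted. Of the 48 shared genes, 0 had risen and 12 had fallen by the edgeR test. Of the 52 in the ethylene list alone, 21 had risen and 0 had fallen, and of the 52 in the control list alone, 0 had risen and 43 had fallen. Over all genes tested, 9.59% rose and 7.92% fell. Among the 2062 genes at 100 CPM or more, 16.9% rose and 18.7% fell. The lists were chosen by level in the same libraries, which sets the direction of the genes in 1 list alone. The 10 most abundant genes of a library held 3.26% and 3.28% of the counts in ethylene, against 2.82% and 2.72% in control. In TPM the shares were 5.69% and 6.08% in ethylene and 4.20% and 3.50% in control.

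Single libraries were then set against each other to compare the effect of ethylene with the difference between replicates. The repeated IDs of chromosome 9 were left out here. Of 17573 other genes that averaged 5 CPM or more, 2365 to 5142 differed by 2-fold or more between an ethylene and a control library. Within ethylene the number was 1144, and within control 647. Ethylene replicate 3 over control replicate 1 gave the lowest number between groups and ethylene replicate 4 over control replicate 2 the highest. In each of these 4 pairs more genes were 2-fold higher than lower in ethylene with TMM scaling. With total counts alone that excess was gone for ethylene replicate 4, at 2072 higher and 2068 lower over control replicate 1 and 2577 higher and 2618 lower over control replicate 2. It remained for ethylene replicate 3, at 1471 and 959 over control replicate 1 and 2032 and 1645 over control replicate 2. At 4-fold or more with TMM scaling, 479 to 1019 genes were higher and 68 to 312 lower in ethylene over control. Within ethylene, 81 were higher and 137 lower in replicate 4 over replicate 3. Within control, 18 were higher and 83 lower in replicate 2 over replicate 1. The 68 and 83 lower in ethylene replicate 3 over control replicates 1 and 2 did not exceed the 137 and 83 lower between replicates. The median absolute difference was 0.39 to 0.60 on the log2 scale between the groups, against 0.27 within ethylene and 0.21 within control.

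**Figure D3:**
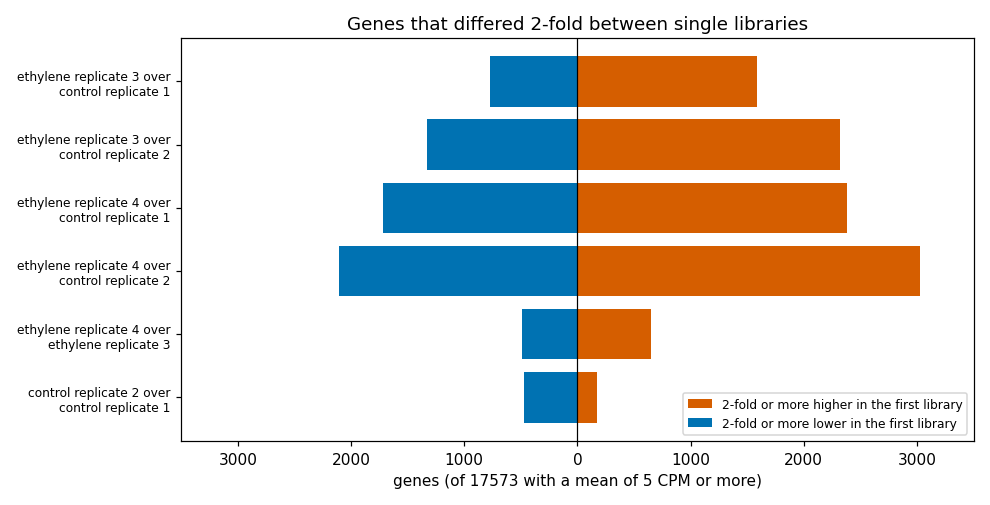
Numbers of genes that differed by 2-fold or more between 2 single libraries. Those higher in the first library lie to the right (orange) and those lower to the left (blue). The 17573 genes compared averaged 5 CPM or more, with the repeated IDs of chromosome 9 left out. The 4 ethylene over control pairs reach 1589 to 3031 genes higher and 776 to 2111 lower with TMM scaling, an excess that total counts alone remove for ethylene replicate 4. The pairs within a group stay at or below 651.

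In logs of CPM plus 0.5, the difference between the group means had a similar size at each level, while the spread between replicates was wider for low genes. Its median absolute value was 0.51 on the log2 scale under 1 CPM, 0.56 at 1 to 10 CPM, 0.45 at 10 to 100 CPM and 0.55 at 100 CPM or more. From low to high, single libraries differed by medians of 0.46, 0.39, 0.25 and 0.28 within ethylene and of 0.50, 0.39, 0.20 and 0.14 within control. A difference between means of 2 libraries varies less than one between single libraries, so these values are not on an equal footing. The added 0.5 shrinks both kinds of difference most under 1 CPM, so sizes there are not on the same footing as at higher levels. Over all genes tested, 8847 (32.8%) had both ethylene libraries above both control libraries and 8846 (32.8%) had both below. These shares include the 1021 repeated IDs of chromosome 9, nearly all with a log2 fold change below 0. The medians above leave those IDs out.

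Genes were also chosen without the ethylene and control libraries, from a fit of the 4 libraries of calcium and ethylene and of calcium alone, which was added after the data had been seen. It called 3271 genes rising and 2092 falling, or 12.6% and 8.05% of 25993 tested (edgeR adjusted p under 0.05). Of the 3271, 2727 (83.4%) had both ethylene libraries above both control libraries, against 32.8% of all genes. Their median log2 difference from the control mean was 1.26 in ethylene replicate 3 and 1.17 in ethylene replicate 4. Of the 2092, 2005 (95.8%) had both ethylene libraries below both control libraries, against 32.8% of all genes, the repeated IDs included. Their medians were -0.93 in replicate 3 and -1.18 in replicate 4. In the fit of all 8 libraries, whose spread includes that of ethylene and control, 2540 genes rose (9.40%) and 2258 fell (8.36%), and the shares without overlap were 94.1% and 97.6%.

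Chromosome 9 stood apart when genes were grouped by the chromosome number in their ID. The median log2 fold change of its 2475 genes tested was -0.39, and 10.8% were called. The other 11 chromosomes had medians between -0.00039 and 0.13, with 15.9% to 19.2% called. The difference lay in 1 run of 1021 consecutive IDs at the start of the chromosome 9 numbering, from number 20 to 10220. In this run the listed length alternated without a break between 1774 bases (511 IDs) and 3285 bases (510 IDs). The next largest set of IDs with the same chromosome and length had 22 members.

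All 1021 IDs of the run were tested and made up 3.78% of the genes tested, and 0 were called by edgeR. An unadjusted edgeR p under 0.05 was reached by 2 of the 511 IDs of 1774 bases and 84 of the 510 IDs of 3285 bases. Over all genes tested it was reached by at least the 17.5% that were called, a larger share than in either set. Counts varied between IDs of the run by more than read counting alone gives, with a variance of 8.83 to 23.9 times the mean in the 4 libraries compared. The median ID of 1774 bases had 60 counts in ethylene replicate 3 and 89 in replicate 4, against 90 in control replicate 1 and 113 in control replicate 2. The median ID of 3285 bases had 58 and 98 counts in ethylene, against 103 and 164 in control. The log2 fold change was below 0 for 509 of the 511 shorter IDs (median -0.44) and for all 510 longer ones (median -0.76). With RLE or no scaling factors the medians were -0.41 and -0.54 for the shorter and -0.73 and -0.86 for the longer IDs. How reads were divided among such repeated IDs is not given in the sources used here. The value of a single ID is uncertain for that reason, and the IDs are not independent measurements.

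The run was therefore also summed to 1 feature for each length, a step added after its values had been seen. The summed 1774-base feature had 1813 and 2027 CPM in ethylene, against 2385 and 2858 CPM in control. The summed 3285-base feature had 1759 and 2292 CPM in ethylene, against 2757 and 4198 CPM in control. Ethylene was below control without overlap for both, as it was for 32.8% of the 27008 genes tested before summing. Neither feature was called. The log2 fold changes were -0.45 (SE 0.26, edgeR adjusted p = 0.258) and -0.78 (SE 0.33, edgeR adjusted p = 0.131), and with 1 library left out they ran from -0.57 to -0.31 and from -1.05 to -0.45. In calcium and ethylene the shorter feature had 1319 and 2110 CPM, against 2182 and 2614 CPM in calcium, and was not called (log2 fold change -0.48, edgeR adjusted p = 0.228). The longer feature had 944.3 and 1490 CPM in calcium and ethylene, against 2538 and 3714 CPM in calcium, and fell (log2 fold change -1.36, edgeR adjusted p = 0.0288). A difference between the ethylene changes with and without calcium was called for neither (edgeR interaction adjusted p = 1 for both). Without the run, chromosome 9 had 1454 genes tested, a median log2 fold change of 0.06 and 18.4% called, within the range of the others. With the run summed, 4808 of 25989 features were called in all, or 18.5%.

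**Figure D4:**
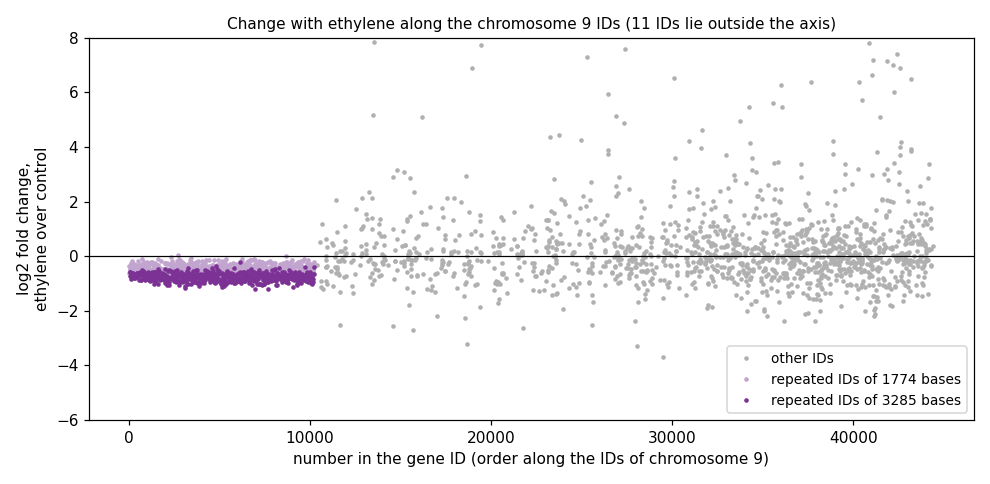
Log2 fold change of ethylene over control for the chromosome 9 IDs tested, in the order of the number in the ID. The repeated IDs of 1774 bases (light purple) and 3285 bases (dark purple) fill the numbers 20 to 10220 in 2 overlapping bands. These have medians of -0.44 and -0.76 and run from -0.85 to 0.04 and from -1.22 to -0.22. The other IDs (grey) scatter around a median of 0.06.

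Falling genes were listed with shorter lengths than rising genes. Leaving out the repeated IDs, the median length was 1920 bases for rising genes, 1497 bases for falling genes and 1709 bases for all 25987 genes tested. The 43 genes that fell past the 2-fold minimum had a median of 956 bases. Since longer genes collect more counts, the genes at 10 to 100 CPM were divided into quintiles by length. In the shortest quintile, of 156 to 1264 bases, 9.63% rose and 18.0% fell. In the longest, from 2886 bases up, 12.8% rose and 6.46% fell. The median log2 fold change was -0.13 in the shortest and 0.08 in the longest.

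The length trend also differed between replicates. The median log2 difference of the longest quintile minus that of the shortest was 0.25 and 0.32 for ethylene replicate 3 over control replicates 1 and 2, and 0.09 and 0.15 for ethylene replicate 4 over the same. Between replicates it was -0.15 for ethylene replicate 4 over replicate 3 and -0.09 for control replicate 2 over replicate 1. In calcium and ethylene over calcium it was 0.18 to 0.50. The part of RNA quality or fragment size in this trend was not tested.

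**Figure D5:**
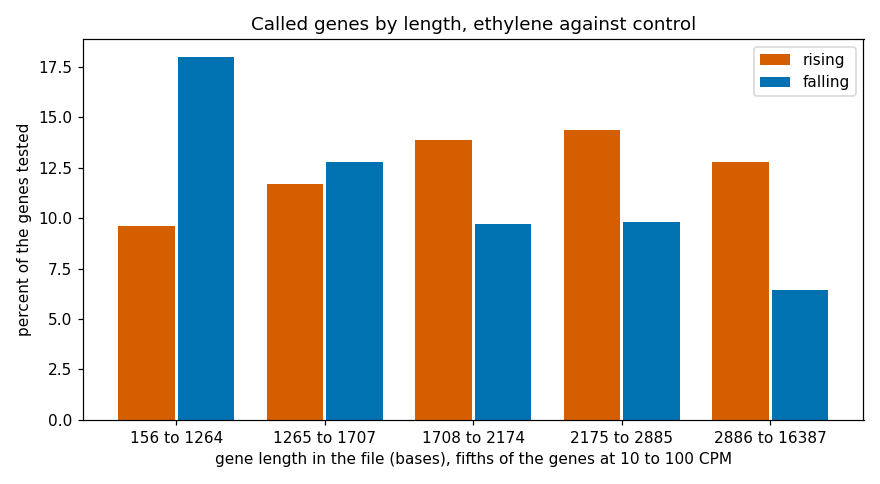
Percent of genes that rose (orange) or fell (blue) with ethylene in 5 length classes of equal size among genes at 10 to 100 CPM, with length in bases as listed in the deposited table. Falls go down from 18.0% in the shortest class to 6.46% in the longest, and rises lie between 9.63% and 14.4%.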

How the data were processed

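Poly(A) RNA of root tips was sequenced, and the authors deposited whole-number counts per gene with a length in bases. Both fastp and featureCounts were used to make them, per the submitters' processing notes. With the aligner, genome build, annotation and strand setting not given in the sources used here, reads of overlapping, antisense or near-identical genes cannot be told apart. Of the lengths of all 57359 IDs, 69.6% are multiples of 3, against 44.7% for the 25987 genes tested without the repeated IDs.

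The fits used edgeR 4.0.16, with limma 3.58.1, under R 4.3.3. The filter was filterByExpr at a minimum count of 10, and the genes left held 99.9% of all counts. After TMM normalisation, a robust quasi-likelihood model of 4 groups was fitted to all 8 libraries, and ethylene was contrasted with control. The common dispersion was 0.093, and the groups left 4 degrees of freedom for the spread. The 2-fold minimum used glmTreat. P-values were Benjamini-Hochberg adjusted over all genes tested, and called under 0.05. The F statistic and the fold change gave the standard error, and that the 95% interval. TPM and CPM were computed from the counts, and log2 differences between single libraries used CPM plus 0.5. Gene numbers at equal depth were expected values for draws with replacement from each library's count shares. A floor of 3 counts covers only counting error.

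Groups came from the treatment labels and replicate numbers from the titles. Named genes were called, changed at least 2-fold, did not overlap between groups and had the largest gain or loss in mean TPM, 2 each. Planned lists of pathway and tissue marker genes could not be filled, since no ID matched a name. The comparison, rules and lists were chosen with earlier results of these data known. Fits were also run on simulated counts in which far fewer genes changed than were called here, and no result rests on that check. Alternatives were RLE size factors, total counts, DESeq2 1.42.0, no filter, a filter of 1 CPM in 2 libraries, the 4 libraries alone, a fit that was not robust and each library left out. Summing the repeated IDs of chromosome 9, and a fit of the 4 calcium libraries alone, were additions made once the data were known. Figures used Python 3.11.15 and matplotlib 3.10.9.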

Additional observations from a re-analysis of the deposited data

How the results depend on the processing

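With only the 4 libraries compared, the 4727 calls became 2712, with 1606 rising and 1106 falling, and the 335 genes past 2-fold became 148. DESeq2 called 3967 rising genes in place of 2589, and without a filter on low counts 817 genes passed the 2-fold minimum. With 1 library left out, in a fit that assumes a lone library varies like the other groups, there were 204 to 4785 calls, 155 to 2676 rising, 49 to 2164 falling, 12 to 923 past 2-fold and 5173 to 8079 bounded within 2-fold. The cause of these shifts was not tested, apart from the fewer libraries or different genes that enter some fits. All other counts under the alternatives named in the methods, and with the repeated IDs summed, stayed within 1.5 times. The 4 named genes kept their direction under all 16 alternatives and lost the call 7 times. No paired analysis was possible because ethylene (numbers 3 and 4) and control (numbers 1 and 2) share no replicate number. At under 1 CPM no gene's change could be bounded within 2-fold.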
